A study of Mus musculus with 24 samples.

Results

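The genes described here are 10 genes of blood vessel growth and of the endothelium, taken by symbol from the 56895 gene entries of the RNA-seq tables: Vegfa, Kdr, Flt1, Tek, Angpt1, Angpt2, Pecam1, Cdh5, Hif1a and Epas1. All 10 were found in every table, and all 10 passed the filter on low values in every fit. The tissue was retroperitoneal white adipose tissue of C57BL/6J mice, as the labels name the strain (C57BL/6JRJ in the study's methods). Mothers were fed AIN-93G with vitamin D3 at 1 IU/g (CTRL) or without vitamin D3 (VDD) for 8 weeks before mating and through gestation, and all of them received the control diet from birth to weaning. The offspring were given a low fat diet (LF, AIN-93M) or a high fat diet (HF, 45% of energy from fat) from 6 weeks of age for 8 weeks. With both sexes this gave 8 groups of 3 mice, hence 24 libraries of polyadenylated RNA. The labels name neither litters nor batches of libraries, so none were fitted, and the p-values measure the spread between these mice only.

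Adipose tissue has a dense capillary bed, and adipocytes themselves secrete VEGF-A, the main growth factor of endothelial cells. VEGF-A signals through the receptor KDR (VEGFR2), while FLT1 (VEGFR1) binds it tightly and can act as a decoy. A second system matures and remodels vessels: angiopoietin 1, made by cells around the vessel, activates the endothelial receptor TEK (Tie2), and angiopoietin 2, made by endothelial cells themselves, competes with it in many settings. PECAM1 and CDH5 (VE-cadherin) hold endothelial cells together. HIF1A and EPAS1 (HIF-2 alpha) are the oxygen-regulated subunits of the transcription factors that drive many of these genes, and their abundance is set largely at the protein level, which was not measured here.

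Values below are normalized reads, that is, reads per gene divided by a size factor computed over the 24 libraries, unless a log2 difference is named. The libraries had 13346779 to 18484346 reads on genes, and even Angpt2, the gene with the fewest reads, had 35.1 to 209 normalized reads. Adipocyte markers were high throughout, with Adipoq, the adiponectin gene, at 44740 to 109716 normalized reads. Markers of other tissues varied. In the library of VDD LF male 2310, 10 skeletal muscle markers made up 5.90% of the normalized reads, and this library had the lowest Pecam1, Cdh5 and Angpt2 of all 24 libraries. The next by these markers were VDD HF male 2307 (2.59%), VDD HF male 2298 (1.56%) and VDD LF female 2303 (0.843%). Counted from the lowest of 24, Pecam1, Cdh5 and Angpt2 ranked 22, 21 and 22 in male 2307. They ranked 19, 20 and 18 in male 2298, and 2, 2 and 5 in female 2303. Low values of these genes thus did not go with muscle markers throughout. VDD LF female 2303 had 9719 normalized reads of 10 kidney markers. Sums of such markers are given beside the results they move with. The names of 6 libraries, none of them of HF females, contain the word renal, which the labels do not explain. The serial numbers in these names also lie apart from those of the other 18 libraries. What sets these 6 libraries apart is not given. They were left out in an alternative, and no block was fitted for them. Their kidney markers summed to 36.6 to 251 normalized reads against 7.69 to 9719 in the other 18.

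To show the regions in front of the genes that varied together (below), the 250 bases before the RefSeq transcription start are printed for Kdr (GRCm38.p6 chr5:75978456-75978705, minus strand), Flt1 (chr5:147726012-147726261, minus strand) and Tek (chr4:94739039-94739288, plus strand), with that of Vegfa (chr17:46032378-46032627, minus strand), which did not pass the same test, for comparison. Capitals mark the core GGAA of the motif of ETS factors, a family that includes regulators of endothelial genes, read on both strands (TTCC on the other).
Kdr: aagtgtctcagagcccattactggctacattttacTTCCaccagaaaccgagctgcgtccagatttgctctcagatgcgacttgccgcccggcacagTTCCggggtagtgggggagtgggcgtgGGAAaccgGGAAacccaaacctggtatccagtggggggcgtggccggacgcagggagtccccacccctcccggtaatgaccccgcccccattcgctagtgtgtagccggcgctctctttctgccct
Flt1: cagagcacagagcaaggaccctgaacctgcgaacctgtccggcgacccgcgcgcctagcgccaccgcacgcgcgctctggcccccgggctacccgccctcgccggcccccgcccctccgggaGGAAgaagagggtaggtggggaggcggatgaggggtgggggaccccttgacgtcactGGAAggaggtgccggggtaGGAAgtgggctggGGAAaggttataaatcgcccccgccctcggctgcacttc
Tek: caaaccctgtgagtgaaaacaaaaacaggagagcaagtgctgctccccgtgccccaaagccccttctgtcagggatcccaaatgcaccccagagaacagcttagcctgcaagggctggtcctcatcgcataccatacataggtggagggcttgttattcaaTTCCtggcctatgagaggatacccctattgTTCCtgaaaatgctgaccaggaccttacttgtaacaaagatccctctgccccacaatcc
Vegfa: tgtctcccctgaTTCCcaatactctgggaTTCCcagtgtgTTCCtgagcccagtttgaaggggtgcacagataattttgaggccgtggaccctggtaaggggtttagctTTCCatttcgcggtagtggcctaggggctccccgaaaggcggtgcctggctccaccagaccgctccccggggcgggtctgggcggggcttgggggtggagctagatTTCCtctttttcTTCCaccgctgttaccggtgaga
The core occurred 4 times in front of Kdr, 4 times in front of Flt1, 2 times in front of Tek and 6 times in front of Vegfa. It is short, and 93.4% of 32851 RefSeq promoter windows of the same length held it, with a median of 3 matches. The hypoxia response core (ACGTG or GCGTG, both strands) was present in 38.6% of windows. It occurred 2 times in the Kdr window and 1 time in that of Flt1, and these letters were not in the windows of Tek or of this Vegfa start. A second Vegfa start in the table (window chr17:46025164-46025413) had 2 hypoxia response cores and 2 ETS cores. Of the 10 genes, 5 had an entry in the promoter table. Pecam1, Cdh5 and Epas1, which also varied together with Kdr, Flt1 and Tek, had none, so the windows do not cover all of those genes. Hif1a, which passed no pair test, had 3 ETS cores and 3 matches to the hypoxia response core in its window. Of these 3 matches, 2 overlap in a single CACGTG that was read on both strands. A match describes the letters only.

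Per kilobase of exon, Vegfa and Epas1 were the most abundant of the 10 genes. Levels between genes were compared as normalized reads per kilobase of merged GENCODE M21 exons (mm10), which counts exons of all isoforms and so lowers the value of a gene such as Flt1 with 13.5 kb of merged exons. Vegfa (chr17:46016993-46032369) averaged 1236 ± 472 and Epas1 (chr17:86753700-86833410) 1126 ± 225 (SD, n = 24), and Vegfa exceeded Epas1 in 12 of 24 libraries, so their order was not resolved. Cdh5 (chr8:104101625-104144511) followed at 797 ± 264, Pecam1 (chr11:106654217-106750628) at 456 ± 131, and Kdr (chr5:75932827-75978458) at 275 ± 71.5, and each of these exceeded the next in 23 or 24 of 24 libraries. Tek (chr4:94739289-94874976) at 195 ± 53.9 and Hif1a (chr12:73901375-73947530) at 167 ± 30.8 overlapped, Tek being higher in 15 of 24. Flt1 (chr5:147561604-147726011) came next at 110 ± 30.6. The angiopoietins were the least abundant, with Angpt1 (chr15:42424723-42676977) at 39.6 ± 24.3 and Angpt2 (chr8:18690263-18741562) at 26.4 ± 12.4, and Angpt1 was the higher of these in 14 of 24. Exons of Hif1a are overlapped by Gm49321 and Gm15283 and those of Angpt1 by Gm17473, and the strand setting used in counting was not stated. These 3 genes had at most 10.02 normalized reads in any library.

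**Figure D1:**
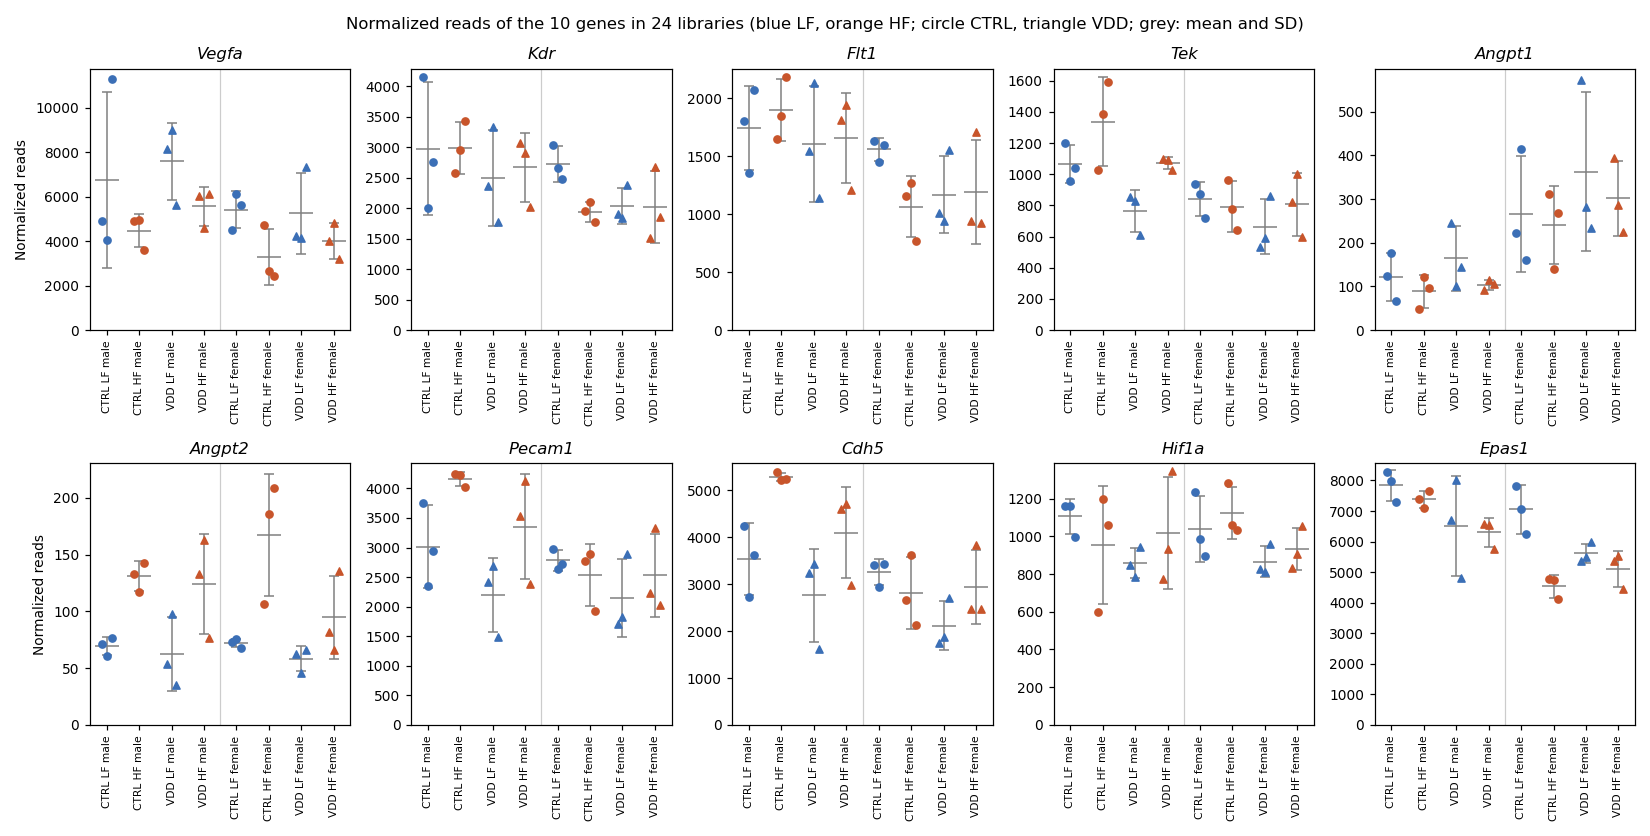
Normalized reads (vertical axes, from 0) of the 10 genes in the 24 libraries, by group (horizontal axes). Points are mice, blue for LF and orange for HF, circles for CTRL and triangles for VDD, with the group mean and SD in grey. Angpt2 ranges from 65.7 to 209 under HF and from 35.1 to 98.1 under LF, and Angpt1 lies higher in females.

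Angpt2, the remodelling angiopoietin, rose under the HF diet, while Vegfa and Epas1 fell. In the fit over all 24 libraries, which averages the 4 HF minus LF differences, these were the 3 of 10 genes past an adjusted p of 0.05 (limma, Benjamini-Hochberg over 18399 genes), at a background of 29.2% of all genes tested. Of all genes called, 51.3% were higher under HF, and 80.3% when libraries were scaled by their total reads instead. With that scaling 4 of the 10 genes were called and all 4 were higher (Angpt2, Cdh5, Pecam1 and Tek), while Vegfa and Epas1 were no longer called. The median log2 difference of the 10 genes was -0.02, and that of all genes 0.01. The share of 3 in 10 is close to the background and says nothing about the 10 genes as a set. In bulk tissue such as this, fewer cells of a type and less RNA per cell cannot be told apart.

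Angpt2 had 61.1, 70.9 and 76.4 normalized reads in the CTRL LF males and 117, 133 and 143 in the CTRL HF males. In VDD males it had 35.1, 53.8 and 98.1 under LF and 76.1, 133 and 163 under HF. The groups were apart in CTRL males and overlapped in VDD males. There the lowest LF value was that of VDD LF male 2310, the library with the highest muscle markers. The HF values of 133 and 163 came from VDD HF males 2298 and 2307, the next by these markers. CTRL females had 67.9, 73.0 and 75.6 under LF and 107, 186 and 209 under HF, and VDD females had 45.7, 62.6 and 66.3 under LF and 65.7, 82.3 and 136 under HF. CTRL females were thus apart and VDD females overlapped by 1 library. The average log2 difference was 0.93 ± 0.17 (SE, n = 12 against 12), a 1.91-fold higher level, with an adjusted p of 0.000623. It was past the threshold in all 12 alternatives and in all 24 fits that left out 1 library. Averaged over the male groups it was 0.97 ± 0.24 (adjusted p = 0.00790), and over the female groups 0.89 ± 0.24 (adjusted p = 0.05005, not called). The difference between these was -0.08 (95% interval -0.80 to 0.64, adjusted p = 0.974).

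Vegfa fell by 0.50 on the log2 scale under HF (SE 0.17, adjusted p = 0.0271), to 0.705 of the LF level. It ranged from 2448 over a median of 4649 to 6126 normalized reads in the 12 HF libraries and from 4037 over 5638 to 11302 in the 12 LF libraries. The diets overlapped, and the highest value came from 1 CTRL LF male, where the other 2 mice of that group had 4037 and 4924. The log2 difference was negative in each of the 4 pairs of groups, from -0.80 in CTRL females (2448, 2660 and 4728 under HF, 4517, 5637 and 6114 under LF) to -0.35 in VDD females. Scaled by total reads Vegfa stood at -0.34 (adjusted p = 0.199) and Epas1 at -0.05 (adjusted p = 0.752), where the median of all genes was 0.18. Leaving out the libraries named renal gave -0.40 for Vegfa (adjusted p = 0.166). The call of Vegfa was kept in 7 of 12 alternatives, at -0.56 to -0.34, and in 20 of 24 fits without 1 library. Besides total reads and the renal libraries, the macrophage, stromal and adrenal scores as covariates ended it.

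Epas1 fell by 0.22 under HF (SE 0.08, adjusted p = 0.0421). This was the smallest of the differences called, and it kept its call in 3 of 12 alternatives and in 8 of 24 fits without 1 library. CTRL LF females had 6252, 7069 and 7830 normalized reads and CTRL HF females 4105, 4742 and 4767, with no overlap, whereas CTRL males had 7293 to 8268 under LF and 7107 to 7650 under HF. The log2 difference was -0.39 ± 0.11 over the female groups (adjusted p = 0.0615) and -0.05 ± 0.11 over the male groups (adjusted p = 0.785). The difference between the sexes was -0.33 (95% interval -0.66 to -0.00, unadjusted p = 0.0475, adjusted p = 0.557), so it was not called. Hif1a, the other oxygen-regulated subunit, differed by 0.04 (95% interval -0.19 to 0.27).

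The receptors and junction genes did not follow a single direction. Averaged over 8 groups, Cdh5 stood at 0.36 (adjusted p = 0.0553) and Pecam1 at 0.30 (adjusted p = 0.0922), not called, although Cdh5 was called in 5 of 12 alternatives and Pecam1 in 3, with values up to 0.61 and 0.51 with the stromal score as a covariate. Cdh5 and Pecam1 rose under HF when the male groups were taken alone, by 0.61 ± 0.19 (adjusted p = 0.0292) and 0.56 ± 0.19 (adjusted p = 0.0362), and Angpt2 was the third gene called there, at backgrounds of 23.0% of all genes in either direction and 11.9% higher. Cdh5 had 2723, 3631 and 4247 normalized reads in CTRL LF males and 5215, 5251 and 5384 in CTRL HF males. Pecam1 had 2352, 2944 and 3754 against 4029, 4225 and 4238. Both genes were apart in CTRL males and overlapped in VDD males, where HF male 2308 had 2984 for Cdh5 and 2392 for Pecam1, within the range of the LF mice. Leaving out any of 5 libraries ended the call of Cdh5, and any of 8 that of Pecam1, and in 2 of 12 alternatives (no filter, and without the libraries named renal) both calls were lost. Without VDD LF male 2310, the library with the highest muscle markers, the log2 differences were 0.44 (Cdh5, adjusted p = 0.0685) and 0.43 (Pecam1, adjusted p = 0.0847). Over the female groups they were 0.11 (95% interval -0.30 to 0.52) and 0.05 (-0.34 to 0.43), no gene was called by limma or limma-voom (background 3.19%), and 3 of 10 had an unadjusted p under 0.05 (background 20.4%). The difference between the sexes was not called for either gene (Pecam1 -0.51, unadjusted p = 0.0668, adjusted p = 0.591, and Cdh5 -0.50, unadjusted p = 0.0858, adjusted p = 0.628). The shares of higher genes among those called were 51.8% in males and 41.1% in females, and 83.3% and 71.2% when scaled by total reads (29.7% in females by the trimmed mean of M-values). Of 18399 genes, 8 (0.0435%) were called in that test of the difference.

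Kdr, Flt1 and Tek, the receptors, were not called by diet. Averaged over 8 groups, the log2 difference was -0.09 (95% interval -0.36 to 0.18) for Kdr, -0.09 (-0.38 to 0.19) for Flt1 and 0.25 (0.02 to 0.47, adjusted p = 0.0934) for Tek.

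The 4 comparisons of diet can also be read one at a time, each fitted to its own deposited table of 6 libraries. The thresholds of the study are an adjusted p under 0.01 and a fold above 1.5 or below 0.66. With them none of the 10 genes was called in any of the 4 comparisons, by limma or limma-voom. The study applied them to DESeq2 results and reported far more genes in each comparison than limma called here. The counts given here are therefore not those of the study, and a missing call does not show that a gene was unchanged. The backgrounds were 0.0578% of all genes in CTRL males, 0.0752% in VDD males and 0 genes in either group of females. At an unadjusted p under 0.05 there were 3 of the 10 genes in CTRL males (background 18.8%), 1 in VDD males (25.9%), 5 in CTRL females (28.8%) and 0 in VDD females (5.05%). At an adjusted p under 0.05 without a fold minimum there were still 0 in CTRL males, where 1.17% of all genes passed (0.699% higher and 0.468% lower), 0 in VDD males, where 5.35% did (3.00% higher and 2.35% lower), and 0 in VDD females, where 0 genes did. In CTRL females 2 of the 10 genes passed, at a background of 7.40%. Angpt2 rose there by 1.12 ± 0.27 (adjusted p = 0.0477, background of 3.24% higher) and Epas1 fell by 0.66 (SE 0.14, adjusted p = 0.0406, background of 4.16% lower). Kdr there differed by -0.51 (adjusted p = 0.0541) and Flt1 by -0.60 (adjusted p = 0.0926).

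The 3 HF and the 3 LF libraries of a comparison were apart for some of the genes. In CTRL males 3 genes were higher without overlap (Angpt2, Pecam1 and Cdh5), at a background of 13.0% of all genes, and 0 were lower (11.7%). In VDD males 1 gene was higher, Tek (612, 830 and 857 under LF, 1027, 1092 and 1096 under HF), at a background of 17.0%, and 0 were lower (16.5%). In CTRL females 1 gene was higher (Angpt2, background 16.9%) and 3 were lower (Kdr, Flt1 and Epas1, background 18.2%). In VDD females no gene was apart in either direction, with backgrounds of 5.55% and 6.06%. Pecam1, Cdh5, Tek, Kdr, Flt1 and Epas1 varied together from mouse to mouse (below), so their separations are not independent of each other.

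**Figure D2:**
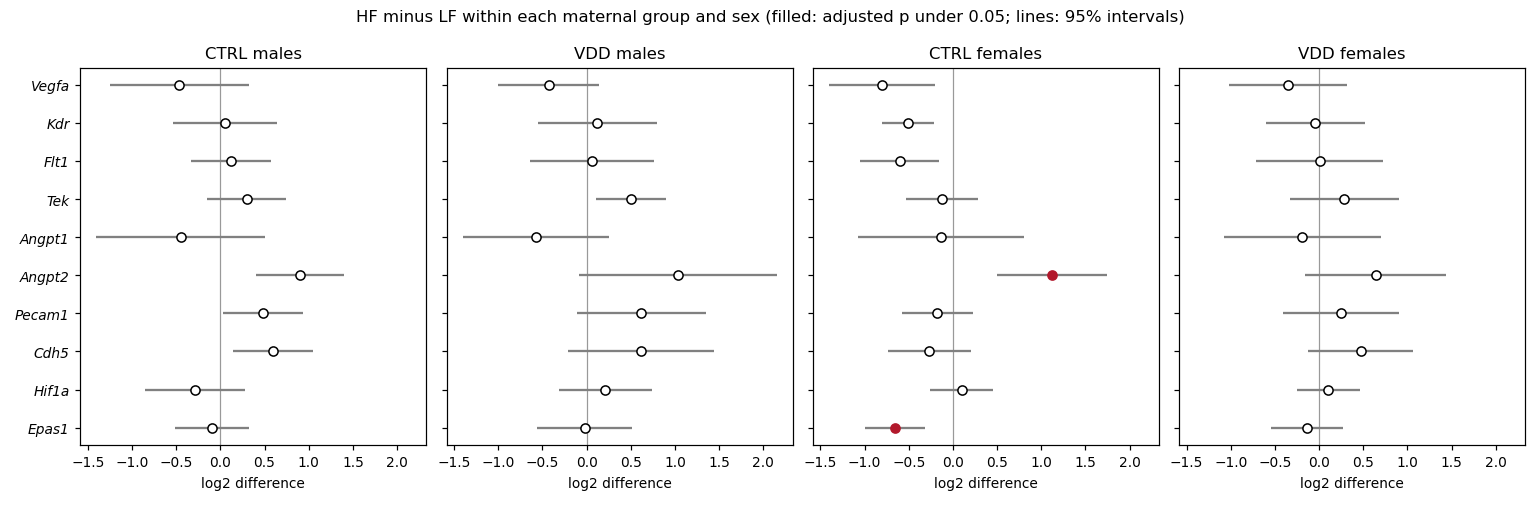
The log2 difference HF minus LF (horizontal axes) of the 10 genes in each of the 4 comparisons of diet, from limma on the deposited tables, with 95% intervals as lines. Filled points passed an adjusted p of 0.05: Angpt2 at 1.12 and Epas1 at -0.66 in CTRL females.

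The ratio of the angiopoietins compares the RNA of Angpt2 and Angpt1, the ligands of TEK, whose protein was not measured. Whether it lies above 1 also depends on the exon lengths used, 3.69 kb for Angpt2 and 5.205 kb for Angpt1. Per kilobase, Angpt2 exceeded Angpt1 in 8 of 12 HF libraries and in 2 of 12 LF libraries. The ratio of Angpt2 to Angpt1 had a median of 2.04 in HF males (1.02 to 3.90), 0.649 in LF males (0.309 to 1.65), 0.669 in HF females (0.295 to 1.87) and 0.328 in LF females (0.154 to 0.596). It was above 1 in 6 of 6 HF males, 2 of 6 LF males, 2 of 6 HF females and 0 of 6 LF females. These ratios are a description of the values tested above.

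Of the 10 genes' wider pathways, the VEGF and apelin genes that passed the test were higher under HF. Of 7 other VEGF ligands and receptors, 5 rose under HF and 0 fell, at backgrounds of 15.0% higher and 14.2% lower over all genes. Vegfc, the ligand best known for lymphatic vessels, rose by 0.72 ± 0.14 (adjusted p = 0.000865) and Nrp2, a co-receptor, by 0.51 ± 0.12 (adjusted p = 0.00425). Of 13 genes of Tie1, Notch and apelin signalling, 5 rose and 0 fell. Apln, the apelin gene, rose by 1.85 ± 0.27 (adjusted p = 9.03e-05), from a median of 41.3 to 160 normalized reads. Aplnr, the gene of the apelin receptor, rose by 1.40 ± 0.22 (adjusted p = 0.000155), from 235 to 634. The cells in which they rose were not tested.

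Of 25 pan-endothelial markers, 7 rose and 1 fell. Myct1 rose by 0.65 ± 0.12 (adjusted p = 0.000572) and Cd34, which stromal progenitors also carry, by 0.96 ± 0.21 (adjusted p = 0.00206). The summed level of the 25 markers was 19135 to 40184 normalized reads under HF (median 25954) and 17532 to 30783 under LF (median 25124). The sums of the diets overlapped. Of 11 pericyte and smooth muscle genes, 4 rose and 0 fell, among them Rgs5 (0.60 ± 0.12, adjusted p = 0.00127) and Notch3 (0.68 ± 0.20, adjusted p = 0.0136). Of 5 lymphatic genes 0 were called (Pdpn 0.88, adjusted p = 0.129, and Lyve1 0.37, adjusted p = 0.426).

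Of the genes of the hypoxia pathway, 2 rose and 8 fell, and for the HIF targets this split depended on the scaling and on 1 library. Of 7 partners and regulators of HIF, 0 rose and 3 fell (1 when scaled by total reads), at the backgrounds of 15.0% higher and 14.2% lower. Egln3, an oxygen-sensing prolyl hydroxylase that is itself a HIF target, fell by 1.66 (SE 0.19, adjusted p = 1.37e-05), from a median of 317 to 111 normalized reads, and Vhl, whose product marks HIF for degradation, fell by 0.42 (SE 0.15, adjusted p = 0.0358). Of 20 HIF target genes, 2 rose and 5 fell. Pdk1, a pyruvate dehydrogenase kinase gene, fell by 1.14 (SE 0.15, adjusted p = 3.67e-05) and Bnip3, a mitophagy gene, by 0.90 (SE 0.12, adjusted p = 2.81e-05). Of 7 inhibitors of angiogenesis, 3 rose and 1 fell, with Serpinf1 at 1.11 ± 0.14 (adjusted p = 3.33e-05) and Vash1, an inhibitor made by endothelial cells, at 1.48 ± 0.23 (adjusted p = 0.000142). Of the HIF targets 4 rose and 4 fell when scaled by total reads, and without VDD LF male 2310 5 rose and 4 fell.

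Markers of other cell types moved with diet as well. All 9 macrophage markers rose under HF, and their sum was 6882 to 47391 normalized reads under HF (median 19881) and 6020 to 28290 under LF (median 9660). Of 6 stromal markers 3 rose, with sums of 12208 to 45150 under HF (median 29514) and 11682 to 51688 under LF (median 23757). Of 6 brown adipocyte markers 2 fell, and their sum was 109 to 33107 under HF (median 516) and 482 to 8920 under LF (median 2833). Of 8 adipocyte markers 2 fell. With the macrophage score of each library as a covariate, Angpt2 kept its call (1.09, adjusted p = 0.00914), Vegfa stood at -0.56 (adjusted p = 0.138) and Epas1 at -0.18 (adjusted p = 0.329). With the macrophage score as a covariate the counts of genes that rose were 1 of 7 VEGF genes, 6 of 13 Tie1, Notch and apelin genes and 2 of 25 pan-endothelial markers. With the stromal score Angpt2, Cdh5 and Pecam1 were called higher, Vegfa and Epas1 were not called, and 12 of 25 pan-endothelial markers rose. The part of these cells in the differences was not tested beyond this.

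By sex, more genes of these lists passed the test in males than in females, as was the case over all genes, of which 11.9% were called higher and 11.1% lower in males and 1.31% and 1.88% in females. The difference between the sexes was tested gene by gene only. In males 4 of 7 VEGF genes, 5 of 13 Tie1, Notch and apelin genes, 10 of 25 pan-endothelial markers and 4 of 11 pericyte and smooth muscle genes rose, and 0 fell. In females 0, 1, 0 and 0 rose, and 1 pan-endothelial marker fell.

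**Figure D3:**
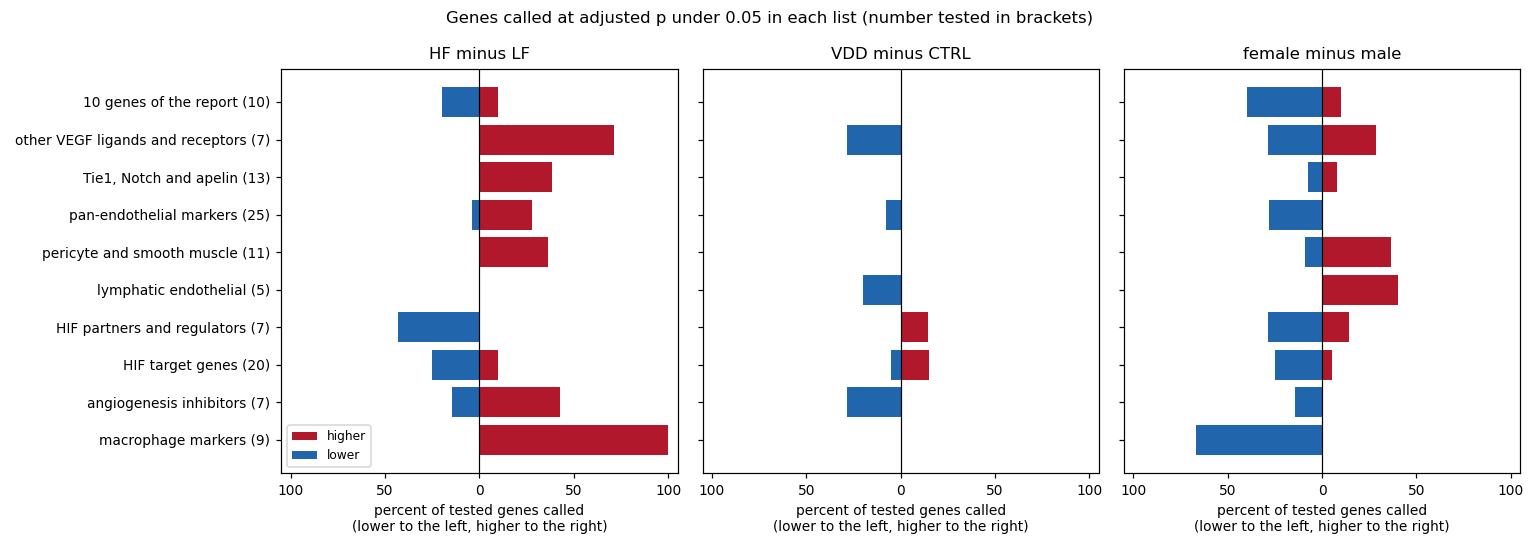
Percent of the tested genes of each list that were called at an adjusted p under 0.05 (horizontal axes, lower to the left in blue, higher to the right in red), for diet, maternal vitamin D and sex over 24 libraries. The macrophage list reaches 9 of 9 genes higher under HF, and the 10 genes of the report have 0 calls for VDD against CTRL.

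Maternal vitamin D deficiency changed none of the 10 genes past the threshold. Over 24 libraries 0 of 10 were called by limma and 0 by limma-voom (background 4.59%), of which 55.2% were higher in VDD and 23.5% when scaled by total reads, while 5 of 10 had an unadjusted p under 0.05 (background 22.9%). The log2 differences VDD minus CTRL were negative for 8 of 10 genes, with a median of -0.20 against -0.01 over all genes. The negative ones include all 6 genes that varied together from mouse to mouse (below), so they are not independent of each other. The 10 genes were not tested as a set. Tek differed by -0.28 (95% interval -0.51 to -0.06, adjusted p = 0.127), Cdh5 by -0.35 (-0.63 to -0.06, adjusted p = 0.140), Pecam1 by -0.32 (-0.59 to -0.04, adjusted p = 0.158), Angpt2 by -0.39 (-0.75 to -0.03, adjusted p = 0.183) and Epas1 by -0.17 (-0.34 to -0.01, adjusted p = 0.199). The other values were -0.21 for Kdr, -0.17 for Flt1, -0.19 for Hif1a, 0.21 for Vegfa and 0.39 for Angpt1. By sex, 0 genes were called in males (0 of all genes) and 0 in females (background 2.02%), by limma and limma-voom, with 3 (background 10.8%) and 1 (background 21.3%) of the 10 at an unadjusted p under 0.05.

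In the 4 separate tables limma called 0 of the 10 genes at either threshold and 0 of all genes, and limma-voom called 0 of the 10. The study, which used DESeq2, reported differentially expressed genes in each of these comparisons, so the limma counts are not its result. At an unadjusted p under 0.05 stood Tek and Hif1a for LF males (background 6.79%), 0 for HF males (5.31%), Kdr and Cdh5 for LF females (12%) and 0 for HF females (16.7%). Where the 3 VDD and the 3 CTRL libraries were apart, VDD was lower for each of the genes, and 0 of the 10 were higher, at backgrounds of 6.83% (LF males), 5.04% (HF males), 8.48% (LF females) and 11.1% (HF females). In LF females 4 genes were (Kdr, Angpt2, Cdh5 and Epas1, background 9.74%), and for Cdh5 the VDD mice had 1749, 1874 and 2710 normalized reads and the CTRL mice 2939, 3402 and 3438. In LF males 2 genes were (Tek and Hif1a, background 6.59%), with Tek at 612, 830 and 857 in VDD and 959, 1041 and 1202 in CTRL mice. In HF males 2 genes were (Cdh5 and Epas1, background 5.25%), with Cdh5 at 2984, 4606 and 4715 against 5215, 5251 and 5384. In HF females 0 were lower (background 11.8%). Kdr, Tek, Cdh5 and Epas1 are among the 6 genes that varied together (below), so their separations are not independent of each other. The lowest VDD value of Cdh5 in LF males, 1624, again came from VDD LF male 2310, the library with the highest muscle markers. VDD HF males 2298 and 2307, the next by these markers, had 4606 and 4715. Over 24 libraries all 10 muscle markers had positive VDD minus CTRL differences and 0 of them passed the test, and all 6 stromal, all 9 macrophage and all 6 mesothelial markers had negative ones, of which 2, 0 and 0 passed. All 6 brown adipocyte markers had positive ones and 1 passed. Their part in the differences was not tested beyond the alternatives given at the end.

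The interaction of maternal and offspring diet was called for 0 of 10 genes in either sex by limma and limma-voom, and for 0 of all 18399 genes. At an unadjusted p under 0.05 there were 0 of the 10 genes in males (background 4.10%) and 1 in females (6.36%), Epas1 (0.49, 95% interval 0.03 to 0.96, adjusted p = 0.769). For Epas1 the HF minus LF difference was -0.66 in CTRL females and -0.14 in VDD females, each from its own table. For Cdh5 the interaction in females was 0.72 (-0.10 to 1.53). The interaction of sex and offspring diet was called for 0 of 10 genes by limma and limma-voom (1 at an unadjusted p under 0.05, background 8.92%), and that of sex and maternal diet for 0 (0 unadjusted, background 6.63%). The comparisons share groups and are not independent of each other.

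Among the wider lists, few genes were called for VDD. Vegfc fell by 0.50 (SE 0.14, adjusted p = 0.0447), one of 2 lower of 7 VEGF genes. Mmrn2, an endothelial matrix protein, fell by 0.46 (SE 0.11, adjusted p = 0.0287), one of 2 lower of 25 pan-endothelial markers, of which 24 had negative differences. Lyve1, a marker of lymphatic endothelium and of some macrophages, fell by 1.19 (SE 0.32, adjusted p = 0.0407). Serpinf1 fell by 0.71 (SE 0.14, adjusted p = 0.0148), one of 2 of 7 inhibitors. Egln3 rose by 0.69 ± 0.19 (adjusted p = 0.0468), and of 20 HIF targets 3 rose, Pgk1 among them (0.84 ± 0.21, adjusted p = 0.0298), and 1 fell. Of the Tie1, Notch and apelin genes (Aplnr -0.47, adjusted p = 0.206) and the pericyte and smooth muscle genes (Acta2 -1.10, adjusted p = 0.0892), 0 were called. The backgrounds were 2.53% higher and 2.05% lower. Without the 6 libraries named renal, 1 gene of all 18058 tested was called for VDD, and 0 on these lists. Without VDD LF female 2303, the library with the kidney markers, 1 gene on these lists was still called, an inhibitor. Without VDD LF male 2310, the library with the highest muscle markers, 5 of the HIF targets rose and 2 fell. With the skeletal muscle score as a covariate 0 of the 20 targets and 0 of the 7 regulators were called. The group of that library, VDD LF males, also held the highest Pgk1 value, 4474 normalized reads against at most 1360 in CTRL mice.

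Angpt1 was higher in females, and 4 genes of the endothelium and of hypoxia signalling were lower. Over 24 libraries 5 of 10 were called, 1 higher and 4 lower in females. The backgrounds were 19.8% in either direction, 10.8% higher and 9.04% lower. The 4 lower genes are among the 6 that varied together from mouse to mouse (below), so their calls are not independent of each other. The share was not tested for the 10 genes as a set. Of all genes called 54.5% were higher in females, and 67.3% when scaled by total reads, with which Angpt1 and Epas1 kept their calls. Angpt1, the ligand that activates TEK, was higher in females by 1.30 ± 0.23 (adjusted p = 0.000555), 2.46-fold. It ranged from 140 over a median of 275 to 573 normalized reads in the 12 females and from 48.2 over 110 to 246 in the 12 males. The ranges overlapped, and in the 4 matched pairs of groups every female median was above the male median. The log2 differences of the 4 genes lower in females were -0.44 ± 0.11 for Tek (adjusted p = 0.00740), -0.34 ± 0.08 for Epas1 (adjusted p = 0.00516), -0.47 ± 0.14 for Cdh5 (adjusted p = 0.0218) and -0.49 ± 0.14 for Flt1 (adjusted p = 0.0179).

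Tek had 534, 799 and 1002 normalized reads as the lowest, median and highest of females and 612, 1035 and 1595 of males. Cdh5 had 1749, 2691 and 3845 in females and 1624, 3939 and 5384 in males. Here too the ranges overlapped, while the medians were lower in females. Kdr (-0.34, adjusted p = 0.0702), Vegfa (-0.43, adjusted p = 0.0747) and Pecam1 (-0.32, adjusted p = 0.0963) lay the same way without being called. Angpt2 differed by -0.00 (95% interval -0.37 to 0.36) and Hif1a by 0.03 (-0.20 to 0.25).

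Of the 25 pan-endothelial markers, 7 were lower in females and 0 higher (14 and 0 without VDD LF male 2310), and their sum had a median of 23663 normalized reads over the females (17680 to 27071) and of 30466 over the males (17532 to 40184). Other tissues moved with sex too. All 3 adrenal markers tested were higher in females, and the 8 on the list summed to 72.6 to 32564 (females) and 25.3 to 321 (males) normalized reads. However, Cyp11b2 was at 0 in all 24 libraries, Dbh was under 10 in all 24, and Cyp11b1, Cyp21a1 and Th were under 10 in 23. Star, Cyp11a1 and Hsd3b1 were highest in CTRL HF female 2292. Of 4 mammary epithelium markers tested 3 were called higher in females, and the list summed to a median of 1235 in females and 195 in males, and of 3 kidney markers tested 2 were (medians 217 and 82.7). Of the mammary list, however, Csn2 and Wap were at 0 in all 24 libraries, and Elf5 was under 10 in all 24. Krt8 and Krt18 had its highest medians over all libraries (245 and 125 normalized reads). The sum of that list thus does not show that mammary tissue was present. Mesothelial markers summed to 2641 to 14177 (females) and 278 to 11445 (males), and 2 of 6 were called higher in females. Of 9 macrophage markers 6 were called lower in females. With the adrenal score as a covariate none of the 5 calls was kept. The log2 differences were then 1.30 for Angpt1 (adjusted p = 0.0517), -0.33 for Tek, -0.33 for Flt1, -0.28 for Cdh5 and -0.23 for Epas1 (adjusted p = 0.303 to 0.497). The adrenal markers themselves differed by sex, so this fit cannot tell a sex difference from one that goes with the score. With the mesothelium score Angpt1 and Epas1 kept their calls. With the 6 libraries named renal left out, Angpt1 alone was called (1.37), with log2 differences of -0.30 to -0.43 for the other 4. The part of these tissues in the differences was not tested beyond this.

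**Figure D4:**
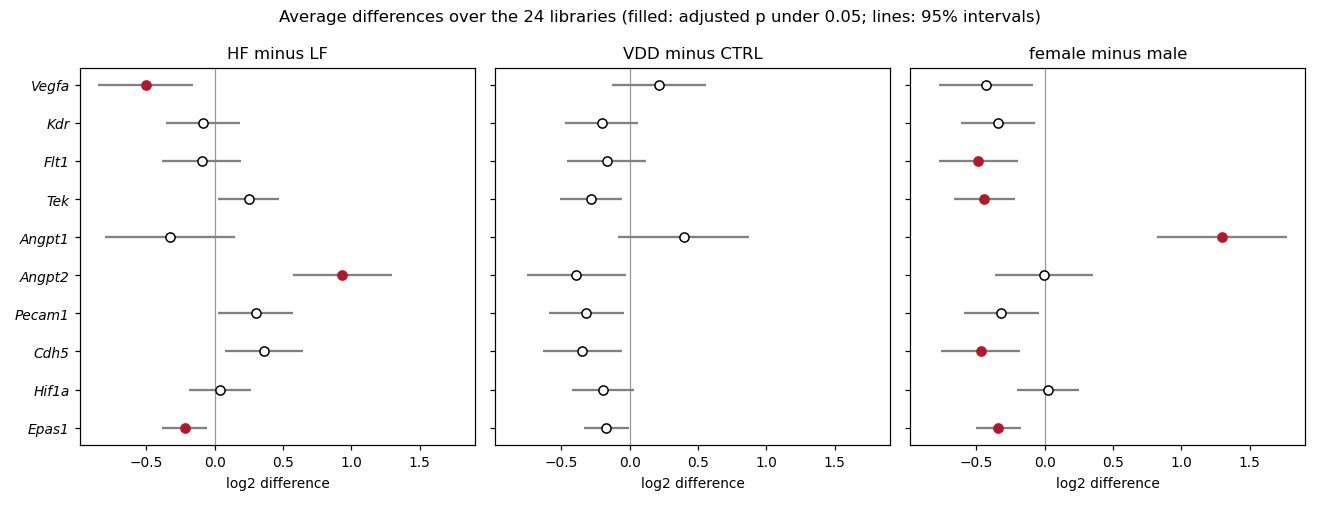
Average log2 differences (horizontal axes) of the 10 genes over 24 libraries for diet, maternal vitamin D and sex, with 95% intervals as lines. Filled points passed an adjusted p of 0.05. Angpt2 stands at 0.93 for diet and near 0 for sex, Angpt1 at 1.30 for sex, and no point is filled for VDD minus CTRL.

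Within groups, 6 of the genes varied together from mouse to mouse. With each group's mean removed from the log2 values, 15 of the 45 pairs of genes had a correlation past an adjusted p of 0.05 over 24 libraries (permutation within groups, 100000 shuffles, two-sided, adjusted over 45 pairs), and these were the 15 pairs among Kdr, Flt1, Tek, Pecam1, Cdh5 and Epas1. Pearson's r in those 15 pairs was between 0.63 and 0.95. Pecam1 and Cdh5 were the closest, with r = 0.952 and rho = 0.940 (permutation p = 1e-05, the smallest the shuffles can give, adjusted p = 0.00045), and r = 0.946 without the 2 libraries farthest from the median of Pecam1. Without the 2 farthest libraries the 15 values were 0.57 to 0.95. Tek and Cdh5 were the loosest of them, with r = 0.626 and rho = 0.607 (permutation p = 0.00642 and 0.0117).

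Vegfa, Angpt1, Angpt2 and Hif1a were in no pair past the threshold. Vegfa with Flt1 had r = 0.511 and rho = 0.548 (permutation p = 0.0351 and 0.0330, adjusted p = 0.0989 and 0.0928), and r = 0.448 without the 2 farthest libraries. Angpt2 with Cdh5 had r = 0.400 and rho = 0.345 (adjusted p = 0.381 and 0.355), and 0.136 without the 2 farthest. Angpt1 and Angpt2 had r = -0.276 and rho = -0.284 (adjusted p = 0.381 and 0.341). The libraries share differences in tissue make-up, as the sums of muscle and kidney markers show, and the part of these in the correlations was not tested.

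The genes most like Cdh5, among 12358 genes with at least 50 normalized reads on average and over the same 24 group-centred values, were Ushbp1 (r = 0.975), Rasip1 (0.964), Robo4 (0.956), Kank3 (0.953) and Arap3 (0.945). Robo4 is an endothelial guidance receptor and Rasip1 a regulator of endothelial junctions. Those most like Vegfa were Mau2 (0.819), Aasdh (0.814), Mapk8ip3 (0.804), Tnip2 (0.795) and Zfp783 (0.781). These are descriptions, with no test.

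**Figure D5:**
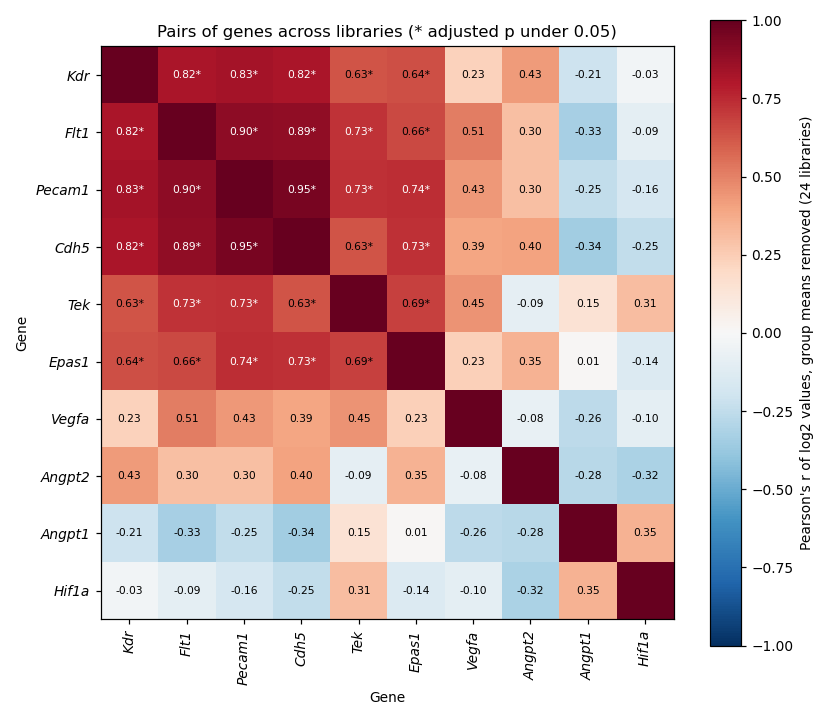
Pearson's r of each pair of the 10 genes (rows and columns) over 24 libraries, after removal of group means, from -1 in blue to 1 in red. Stars mark an adjusted p under 0.05. The block of Kdr, Flt1, Pecam1, Cdh5, Tek and Epas1 holds all 15 starred pairs, between 0.63 and 0.95.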

How the data were processed

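Polyadenylated RNA of 24 adipose samples, 3 per group by the labels, was sequenced from stranded libraries. Per the submitters' processing notes, the tools included STAR 2.7.0d, SAMtools 1.9, Cufflinks 2.2.1 and featureCounts 1.6.1 on mm10. How strand was handled in counting was not stated. The authors deposited 8 tables of log2(normalized reads + 1), 6 libraries each. They also hold the authors' fold changes and p-values, which were not used. Of 56899 entries, 4 with duplicated names were left out.

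Column names carry mouse numbers, not the replicate numbers of the labels, so columns were mapped to groups. Undoing the log2 and the size factor gave whole reads for 100% of values within 0.02, identical between tables.

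Moderated linear models (limma 3.58.1 under R 4.3.3, with an intensity trend) were fitted to each table after a filter that required 10 normalized reads or more in 3 or more of the libraries. The 11 averages and interactions were fitted with 1 mean per group to the recovered reads of 24 libraries, scaled by the median of ratios, as log2(value + 1). p-values were Benjamini-Hochberg adjusted over all genes. The calling was tested on simulated data. Alternatives were limma-voom, other scalings, a pseudocount of 10, no filter, marker scores as covariates, and leaving out libraries. The marker scores other than muscle, and the list counts without the muscle-rich and kidney-rich libraries, were added after seeing the data. The members, the lists and the named genes (2 per list by p for diet, 1 for VDD, and the 5 genes most like Cdh5 and like Vegfa) were chosen with earlier results of these data known. The correlations and plots were made in Python 3.11.15 (scipy 1.17.1, matplotlib 3.10.9, numpy 2.4.6, pandas 2.3.3).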

Additional observations from a re-analysis of the deposited data

How the results depend on the processing

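No value of the 10 genes reversed a call under any alternative. No paired analysis was possible because the table columns carry none of the labels' replicate numbers. For HF against LF over 8 groups, 3 of 10 genes were called, and without the libraries named renal 1, with the macrophage score 1, with the mesothelium score 5, and at an adjusted p under 0.01 with the fold minimum 1. Leaving out 1 library gave 1 to 5: without CTRL HF male 2131 or VDD HF male 2307 it was 1, and without VDD LF female 2312 it was 5. For VDD against CTRL 0 were called, 2 with the mesothelium score (Cdh5 and Pecam1, lower) and 0 to 1 leaving out 1 library (1, Tek, without VDD LF female 2312). For female against male 5 were called, 2 when scaled by total reads, 1 without the libraries named renal, 2 with the mesothelium score, 0 with the adrenal score, 1 at the stricter rule, and 5 to 8 leaving out 1 library (8 without VDD LF male 2310). For diet in males 3 were called, 1 without a filter, 1 without the renal libraries, 1 at the stricter rule, and 1 to 4 leaving out 1 library (1 without CTRL LF male 2293, CTRL HF male 2131, VDD LF male 2310, VDD HF male 2298 or VDD HF male 2307). For diet in females 0 were called, 1 when scaled by total reads, 1 with a pseudocount of 10, 2 with the mesothelium score, and 0 to 2 leaving out 1 library (2 without VDD LF male 2302, VDD LF male 2310 or VDD HF female 2083). In CTRL females 2 were called at an adjusted p under 0.05 and 0 at the rule of the study. Scaling by total reads put the median of all genes at 0.18 for diet, -0.13 for VDD and 0.04 for sex. Over all genes, 5367 were called for diet, 3378 without the libraries named renal and 1713 with the macrophage score. For VDD it was 844, and 1 without the renal libraries, 360 without a filter, 304 with the muscle score, 197 with the macrophage score and 0 with the stromal score. For sex it was 3651, and 1307 without the renal libraries, 1919 with the macrophage score and 445 with the adrenal score. The causes were not tested.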
